A study of Mus musculus with 8 samples.

Results

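The kainate and delta glutamate receptor genes examined here are Grik1, Grik2, Grik3, Grik4, Grik5 and Grid1. They were chosen by name, with earlier results of these data known, and all 6 were found among the 21631 protein-coding genes on chromosomes 1 to 19 and X. Open chromatin was mapped by ATAC-seq, in which the Tn5 transposase cuts accessible DNA, in amygdala neurons of male mice of the C57BL/6J strain. Mice received AAV carrying a guide RNA against the Rosa26 locus (sgRosa, 4 libraries, the control) or against Nr2f2 (sgNr2f2, 4 libraries), which was left to express for more than 2 weeks. Every mouse of both groups then went through tube restraint for 7 days, fear conditioning for 1 day and extinction training for 3 days, so no library comes from unstressed mice. Neither the age of the mice nor the source of Cas9 is given in the sources used here. Neurons were purified with the Miltenyi magnetic kit for adult neurons, and a library was treated as 1 animal, since the design text counts 4 mice in each group. Nr2f2 encodes COUP-TFII, an orphan nuclear receptor whose family binds repeats of the half-site AGGTCA. Peak lists record where open chromatin was called, and not transcript or protein, so they do not check the knockdown.

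Kainate receptors are glutamate-gated cation channels built as tetramers. GluK1, GluK2 and GluK3 (Grik1, Grik2, Grik3) can form channels on their own, whereas GluK4 and GluK5 (Grik4, Grik5) bind agonist with higher affinity and need one of the former as a partner. In the amygdala, receptors with GluK1 modulate both excitatory and inhibitory transmission. GluD1 (Grid1) has the fold of an ionotropic glutamate receptor but serves mainly as a synaptic organiser that binds secreted cerebellins.

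The members are long genes on 6 different chromosomes of mm10. Grik1 (gene ID 14805) lies at chr16:87895901-88290863, Grik2 (14806) at chr10:49093680-49790161, Grik3 (14807) at chr4:125490259-125714173, Grik4 (110637) at chr9:42518182-42945000, Grik5 (14809) at chr7:25009849-25075694 and Grid1 (14803) at chr14:34820003-35583387. Grid1, at 763 kb, and Grik2, at 696 kb, were longer than 99.5% and 99.4% of protein-coding genes, whereas Grik5 spanned 65.8 kb. A peak was given to a gene when its summit lay in the gene or within 5 kb of either end. The window of Grik5 also overlaps Zfp574, and peaks there cannot be told apart between the 2 genes.

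Promoter sequences were available in the RefSeq table (GRCm38.p6, the assembly of mm10) for 4 of the 6 members and are shown because no peak of any library overlapped them. Each runs from 250 bases before to 50 bases after the start site, 5′ to 3′. They lie at chr10:49788705-49789004 (minus strand), chr4:125490446-125490745 (plus strand), chr9:42944322-42944621 (minus strand) and chr7:25072320-25072619 (minus strand). Capitals mark GGGCGG, the GC box bound by factors of the Sp family, on either strand (CCGCCC when it is on the other strand).
Grik2: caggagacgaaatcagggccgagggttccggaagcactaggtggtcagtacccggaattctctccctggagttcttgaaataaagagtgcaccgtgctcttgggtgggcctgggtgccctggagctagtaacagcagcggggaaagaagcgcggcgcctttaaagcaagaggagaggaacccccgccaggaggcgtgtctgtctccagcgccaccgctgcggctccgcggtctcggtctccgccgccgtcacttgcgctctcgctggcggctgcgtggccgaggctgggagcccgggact
Grik3: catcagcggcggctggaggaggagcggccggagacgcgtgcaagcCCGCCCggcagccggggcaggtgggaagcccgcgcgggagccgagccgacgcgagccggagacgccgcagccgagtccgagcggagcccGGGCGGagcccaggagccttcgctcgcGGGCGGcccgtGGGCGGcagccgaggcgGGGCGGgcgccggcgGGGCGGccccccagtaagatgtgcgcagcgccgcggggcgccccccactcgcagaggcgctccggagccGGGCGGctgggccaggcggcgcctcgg
Grik4: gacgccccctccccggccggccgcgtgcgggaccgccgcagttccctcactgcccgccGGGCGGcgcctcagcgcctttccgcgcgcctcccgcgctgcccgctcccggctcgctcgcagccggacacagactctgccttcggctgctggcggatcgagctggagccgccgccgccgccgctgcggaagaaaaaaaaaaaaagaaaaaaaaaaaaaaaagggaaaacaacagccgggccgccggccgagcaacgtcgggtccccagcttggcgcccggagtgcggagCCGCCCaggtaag
Grik5: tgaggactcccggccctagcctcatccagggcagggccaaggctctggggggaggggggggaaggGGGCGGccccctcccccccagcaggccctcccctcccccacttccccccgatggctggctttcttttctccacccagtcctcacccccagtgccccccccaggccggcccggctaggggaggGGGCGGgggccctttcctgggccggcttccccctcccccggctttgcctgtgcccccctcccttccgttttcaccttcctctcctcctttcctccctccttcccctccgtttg
GGGCGG occurred 7 times in the Grik3 promoter, 2 times in that of Grik4 and 2 times in that of Grik5, and 0 times in that of Grik2. Of 17274 promoters of protein-coding genes of the same length, 46.9% held it on either strand. AGGTCA was in none of the 4 promoters on either strand, against 14.4% of all promoters. The GC content was 64.7% for Grik2, 82% for Grik3, 70% for Grik4 and 72% for Grik5, with a median of 56.3% over all promoters. CpG dinucleotides numbered 26, 50, 42 and 10 in the same order, against a median of 14.

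No peak overlapped these promoters, and the distance to the nearest summit is to be read against the usual spacing. Neighbouring summits of the 8 full lists together lay a median of 1.05 kb (Grik5) to 2.51 kb (Grik2) apart in these genes. The nearest summit to the Grik2 start was at −819 bp, before it (library sgNr2f2 2), and 7 peaks of the 8 full lists lay within 5 kb of it. At Grik3 the nearest summit was 263 bp after the start (sgRosa 4), with 4 peaks within 5 kb. The nearest was 656 bp after the start at Grik4 (sgRosa 4) and 1839 bp after it at Grik5 (sgRosa 1), with 5 and 8 peaks within 5 kb. Per library, the 5 kb on each side of the start held 87.5 peaks per Mb at Grik2, 50 at Grik3, 62.5 at Grik4 and 100 at Grik5, beside 30.1, 43.3, 46.6 and 49.4 over the whole windows of the same genes in the full lists. These are densities from 4 to 8 peaks each and carry no test. Of all 17274 promoters, 18.8% were overlapped by a peak of at least 1 of the 8 full lists, and 1.75% to 4.42% by a peak of a given list, so a promoter without a peak was the usual case. At Grik1, 3 peaks lay within 5 kb of the end with the higher coordinate, in sgRosa 2, sgNr2f2 1 and sgNr2f2 4. All 3 had a q under 0.05, beside 11 of all 101 Grik1 peaks. This carries no test, and the q of peaks near the ends of the other members is not given here. At Grid1, 3 peaks lay within 5 kb of the lower end and 7 within 5 kb of the higher end.

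The 8 lists held 53864 to 143405 peaks, called per library, and read depth is unknown. Of each full list, 4.81% to 18.6% had a q, the authors' p corrected for multiple testing, under 0.05. Most peaks were therefore not shown to lie above background at that threshold. The lists differ in how far down they reach, so groups were compared on the strongest 53864 peaks of each library by the authors' −log10 p. Lists of equal length still ended at different strengths, from a −log10 p of 2.00 in sgNr2f2 4 to 3.70 in sgRosa 4. Many peaks had exactly the same p at the last place, 18530 in sgNr2f2 2 for 5311 places, and the deposited files order such ties by chromosome. Tied peaks were therefore given a weight, the share of them that fits, from 0.0769 in sgRosa 3 to 1 in sgNr2f2 4, so that a number of peaks need not be whole. The members held 789 peaks in the full lists and 529 in the lists of equal length. Marker genes of neurons (5 of 5 with a peak) summed to 47.7, 34.9, 36 and 47 peaks in the sgRosa libraries and to 24, 20.01, 35.9 and 29 in the sgNr2f2 libraries, so that 3 of the 4 sgNr2f2 sums lay below every sgRosa sum. Within that list, and picked after its values were seen, Map2 had means of 6.44 ± 2.28 peaks (sgRosa) and 2.25 ± 2.04 (sgNr2f2, SD, n = 4), without overlap (exact permutation p = 0.0286, adjusted p = 1). Of all 7795 genes tested, 0.616% were lower in sgNr2f2 without overlap. The neuron markers did not all move the same way. The difference in mean peaks, sgNr2f2 minus sgRosa, was −11.8 at Syt1 and −4.19 at Map2. It was 1.598 at Snap25, 0.194 at Rbfox3 and 0 at Tubb3. Marker genes of astrocytes (4 of 4) summed to 1 to 6 and 4 to 11, those of microglia (3 of 3) to 0 to 4 and 0.287 to 3, and those of vascular cells (2 of 2) to 0 to 4 and 1 to 4. Those of oligodendrocyte precursors (2 of 2) summed to 1 to 4.78 and 0 to 3. Markers of glutamatergic neurons (3 of 3) summed to 2 to 8 and 1 to 12, and of GABAergic neurons (3 of 3) to 1 to 5 and 3 to 5.70. The sums of the other lists given overlapped between the groups, and the part of these lists in the results below was not tested.

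Grid1 held the most peaks of the members and the largest difference between groups, which missed the threshold. In lists of equal length, the sgRosa libraries 1 to 4 had 11.6, 18.99, 18 and 17 peaks at Grid1, and the sgNr2f2 libraries 1 to 4 had 32, 18.01, 22.4 and 29. The sgRosa libraries averaged 16.4 ± 3.32 (SD, n = 4) and the sgNr2f2 libraries 25.3 ± 6.33 (SD, n = 4), a ratio of 1.55. The groups overlapped, because sgNr2f2 2 lay below sgRosa 2, and a two-sided exact permutation test over the 70 assignments gave p = 0.0571 (adjusted p = 1 over 7795 genes), where the smallest possible p is 0.0286. No member had groups that did not overlap, against 1.62% of the 7795 genes higher in sgNr2f2 without overlap and 0.616% lower. No gene passed the adjusted exact test (0%), and 174 genes (2.23%) had an unadjusted exact p under 0.05. If ties were taken in the files' chromosome order instead, Grid1 counts became 12, 19, 18 and 17 against 32, 23, 23 and 29, and the exact permutation p became 0.0286. Grid1 had 14, 22, 19 and 43 peaks in the full sgRosa lists and 58, 35, 24 and 29 in the full sgNr2f2 lists (exact permutation p = 0.286), where 0.616% of 11368 genes were higher in sgNr2f2 without overlap and 0.264% lower. Without sgNr2f2 2, the difference in lists of equal length was 11.4 peaks (exact permutation p = 0.0286), and without sgNr2f2 1 it was 6.75 (exact permutation p = 0.0571). With all peaks of a −log10 p of at least 3 in every library, it was 10.5 (exact permutation p = 0.229).

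**Figure D1:**
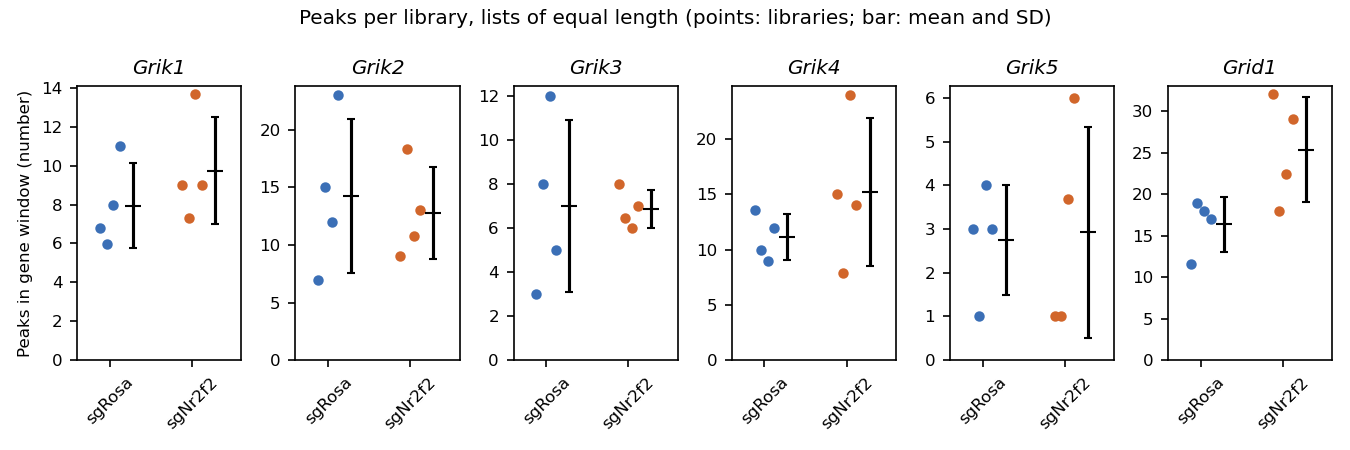
Peaks in the window of each member gene (gene and 5 kb on each side) in lists of equal length, 1 point per library, with the mean and SD of the 4 libraries of each group as a bar beside them. The vertical axis starts at 0 in every panel and has its own scale. The groups overlap for all 6 genes, and the means stand furthest apart for Grid1 (16.4 and 25.3).

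The 3 subunits that form channels on their own had overlapping numbers in the groups. Grik1 had 6.78, 5.99, 8 and 11 peaks in sgRosa and 9, 7.29, 13.7 and 9 in sgNr2f2 (means 7.94 ± 2.199 and 9.75 ± 2.75, SD, n = 4 each, exact permutation p = 0.371). Grik2 had 7, 15.0, 12 and 23 in sgRosa and 9, 18.3, 10.8 and 13 in sgNr2f2 (means 14.2 ± 6.70 and 12.8 ± 4.03, SD, n = 4 each, exact permutation p = 0.771). Grik3 had 3, 8, 12 and 5 in sgRosa and 8, 6.43, 6 and 7 in sgNr2f2 (means 7.00 ± 3.92 and 6.86 ± 0.864, SD, n = 4 each, exact permutation p = 1). For each of the 3, the sgRosa libraries spanned a range that held most or all of the other group. Grik1 leaned higher in sgNr2f2 in these lists and lower in the full lists (8, 7, 10 and 27 against 12, 13, 15 and 9). Grik2 had 8, 16, 13 and 60 peaks in the full lists of sgRosa and 18, 30, 12 and 13 in sgNr2f2, and sgRosa 4, the longest list, held the highest number.

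The 2 high-affinity subunits did not differ beyond the spread either. Grik4 had 13.6, 9.99, 9 and 12 peaks in sgRosa and 15, 7.86, 24 and 14 in sgNr2f2 (means 11.1 ± 2.04 and 15.2 ± 6.65, SD, n = 4 each, exact permutation p = 0.314). Its sgNr2f2 libraries included both the lowest and the highest number, and the difference of 4.08 peaks was 6.53 without sgNr2f2 2, the lowest (exact permutation p = 0.0286), and 1.15 without sgNr2f2 3, the highest (exact permutation p = 0.629). Grik5 had 3, 1, 4 and 3 in sgRosa and 1, 1, 3.70 and 6 in sgNr2f2 (means 2.75 ± 1.26 and 2.92 ± 2.41, SD, n = 4 each, exact permutation p = 1). All 6 members passed the minimum of 8 peaks over the 8 libraries. The median difference was 0.988 peaks over the members (4 higher and 2 lower in sgNr2f2) and 0.250 over all genes tested, of which 57.5% had the higher mean in sgNr2f2.

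Summed over the 6 genes, the lists of equal length held 44.9, 59.0, 63 and 71 peaks in sgRosa and 74, 58.9, 80.6 and 78 in sgNr2f2. Without Grid1 the sums were 33.3, 39.97, 45 and 54 against 42, 40.9, 58.2 and 49. The groups overlapped in both sums. As a share of each full list, member peaks made up 0.0864% to 0.130% in sgRosa and 0.111% to 0.145% in sgNr2f2. The share of each full list in gene windows as a whole also leaned higher in sgNr2f2. It was 44.6%, 47.5%, 51.3% and 48.1% in sgRosa and 51.6%, 49.1%, 56.1% and 52.9% in sgNr2f2. How far this shift enters the results at the members was not tested.

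Peak density was then set against the 1 Mb on each side of each gene in the same library, so that each library is compared with itself. The flanks differ in gene content, with 62 protein-coding genes beside Grik1, 1 beside Grik2, 38 beside Grik3, 11 beside Grik4, 70 beside Grik5 and 24 beside Grid1. Over the 8 libraries, the density in the gene and in its flanks was 21.8 ± 6.17 and 18.9 ± 5.21 peaks per Mb for Grik1, and 19.1 ± 7.33 and 20.1 ± 6.17 for Grik2 (SD, n = 8). It was 29.6 ± 11.2 and 28.5 ± 12.5 for Grik3, and 30.2 ± 11.6 and 24.1 ± 7.06 for Grik4. For Grik5 it was 37.4 ± 23.5 and 29.1 ± 13.9, and for Grid1 27.0 ± 8.66 and 23.9 ± 5.05. Density in the gene was higher than in the flanks in 4 (Grik2), 5 (Grik1, Grik3, Grik5, Grid1) or 6 (Grik4) of the 8 libraries, and no member passed a two-sided exact sign-flip permutation test, where the smallest p was 0.102 for Grik4 (adjusted p = 0.540 over 4845 genes). Among those 4845 genes of at least 50 kb, 3.88% had a higher and 6.87% a lower density than their flanks at an unadjusted p under 0.05. Their median densities were 23.2 peaks per Mb in the gene and 22.7 in the flanks. In order of density per Mb the members ran Grik5, Grik4, Grik3, Grid1, Grik1 and Grik2, and each step between neighbours was smaller than the SD of either gene.

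**Figure D2:**
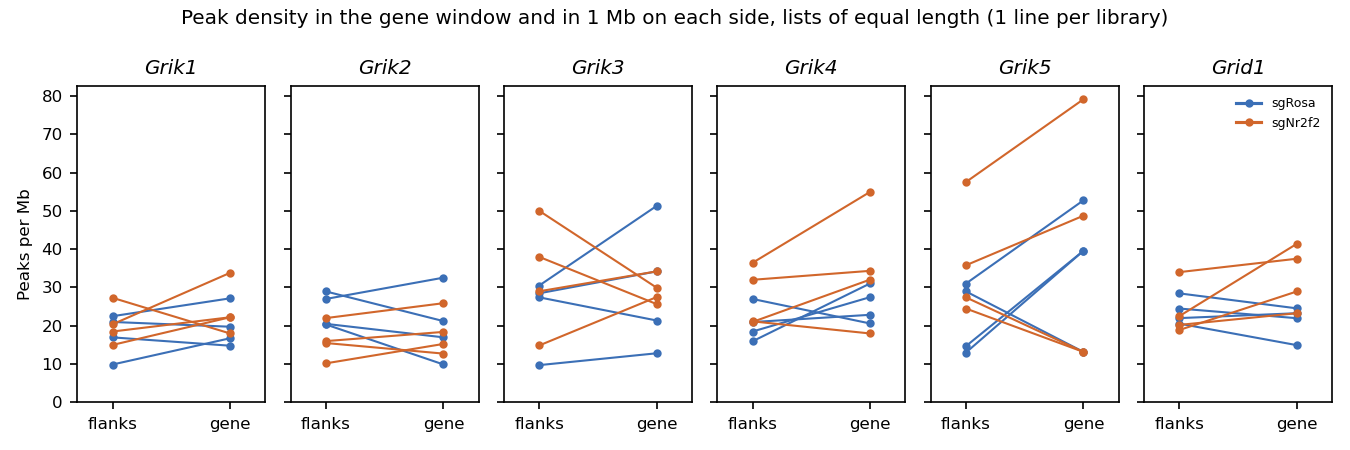
Peaks per Mb in the gene window and in the 1 Mb on each side of it, in lists of equal length, with 1 line per library in the colour of its group and all panels on 1 vertical axis from 0. For Grid1 all 4 sgNr2f2 lines rise from flank to gene, and 3 of the 4 sgRosa lines fall.

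Relative to its flanks, Grid1 was the member whose groups separated. Its density in the gene minus that in the flanks was −5.61, −3.91, 1.27 and −2.52 peaks per Mb in sgRosa and 18.9, 3.06, 10.1 and 3.50 in sgNr2f2, in order of replicate number. Every sgNr2f2 library was above every sgRosa library. The group means were −2.69 ± 2.93 and 8.87 ± 7.40 (SD, n = 4 each), a difference of 11.6 peaks per Mb with an exact permutation p of 0.0286, the smallest possible, and an adjusted p of 0.986 over 4845 genes. Of those genes, 1.57% were higher in sgNr2f2 without overlap and 1.22% lower, so 1 of 6 members is to be read against 76 and 59 such genes, none of which passed the adjusted test. The flanks of Grid1 had the same mean in both groups, 23.9 ± 3.46 in sgRosa and 23.9 ± 6.89 in sgNr2f2. By library, however, they ran from 20.6 to 28.5 in sgRosa and from 18.9 to 34 in sgNr2f2. Density in the gene alone overlapped, at 24.6 in sgRosa 2 and 23.3 in sgNr2f2 2, whose flanks had 28.5 and 20.2. With full lists, which need no rule for ties, the gene minus flank densities were −7.40, −3.55, −2.93 and −1.40 against 25.0, 8.76, 8.53 and 3.50 (exact permutation p = 0.0286, adjusted p = 0.935), and 1.75% of genes were higher without overlap and 1.3% lower.

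The p did not stay at its smallest value under every setting. With flanks of 0.5 Mb the difference at Grid1 was 10.2 peaks per Mb (exact permutation p = 0.143), with lists of 26932 peaks it was 7.87 (exact permutation p = 0.0857), and with the gene body alone 10.5 (exact permutation p = 0.0571). The exact permutation p stayed at 0.0286 with flanks without other genes (15.6), a −log10 p of at least 3 (11.5), windows of 20 kb (10.9), order by fold (10.96), every summit kept (12.02), ties in chromosome order (11.8) and ties left out (10.8). Leaving out sgRosa 1, 2, 3 or 4 gave 10.6, 11.2, 12.9 or 11.6, and leaving out sgNr2f2 1 gave 8.23, all with an exact permutation p of 0.0571 to 0.0857, where 3 against 4 libraries allow 0.0286. The remaining libraries had to stay apart in each case, since no sgNr2f2 value lay below a sgRosa value. Their separation is therefore no further check. Leaving out sgNr2f2 2, 3 or 4 gave 13.5, 11.2 or 13.4 (exact permutation p = 0.0286). For full lists the p rose to 0.0571 (exact permutation) without sgRosa 1, 2, 3 or 4, with differences of 14.1, 15.4, 15.6 and 16.1. For the other 5 members the difference between groups in gene minus flank density ran from −12.1 (Grik5) to 6.18 (Grik2) peaks per Mb, with an exact permutation p between 0.2 and 0.771. With flanks of 0.5 Mb, Grik2 reached 11.2 (exact permutation p = 0.0286).

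Peaks were spread along the 5 longer genes, each of whose 10 equal parts held at least 1 peak of the full lists. In Grik5, part 9 of 10 from the 5′ end held 0 peaks and the longest stretch without a summit was 13.7 kb. The median distance between neighbouring summits, taken over the 8 full lists together, was 1.05 kb in Grik5 and between 1.77 kb (Grik4) and 2.51 kb (Grik2) in the longer genes. The longest such stretch in any member was 34.97 kb, at chr10:49211825-49246797 in Grik2. The densest 20 kb was at chr4:125656598-125676597 in Grik3, with 16 peaks from 6 libraries, 8 in each group. In Grid1 the densest 20 kb, chr14:35034583-35054582, held 14 peaks from 6 libraries, 3 in sgRosa and 11 in sgNr2f2. At Grik4 the corresponding stretch, chr9:42821182-42841181, held 14 peaks from 7 libraries (6 and 8).

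**Figure D3:**
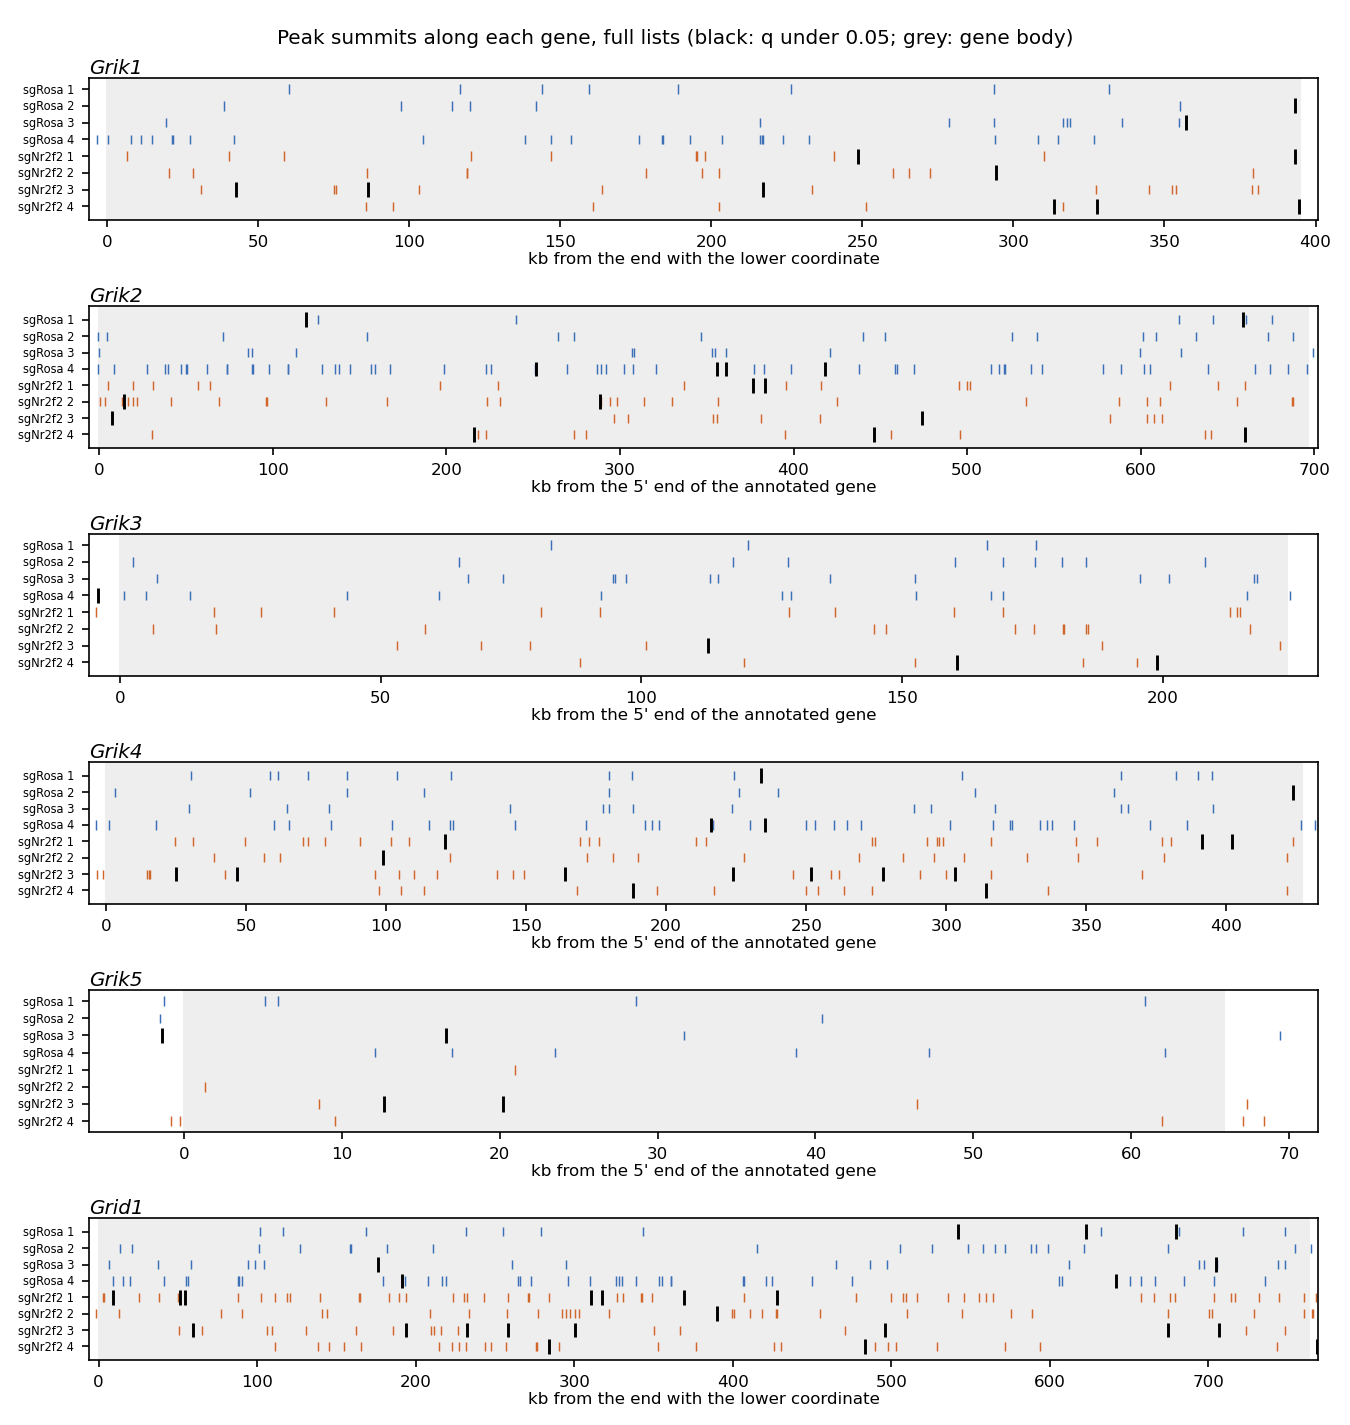
Summits of all peaks of the full lists along each gene, in kb, with 1 row per library, blue for sgRosa and orange for sgNr2f2, and longer black marks for peaks with a q under 0.05. Grey marks the gene body, and the axis begins at the 5′ end of Grik2, Grik3, Grik4 and Grik5 and at the lower coordinate of Grik1 and Grid1. Marks are scattered over the 5 longer genes, and few marks of any gene line up between rows. Each panel has its own horizontal scale. Grik5, the shortest gene, therefore shows few marks, although its density of 49.4 peaks per Mb was the highest of the members.

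Along Grid1, cut into 10 equal parts from the lower coordinate, the number of peaks differed most in parts 3 and 4. In lists of equal length these 2 parts held 7 and 5.78 peaks over the 4 sgRosa libraries and 17.7 and 16.3 over the 4 sgNr2f2 libraries. In part 9 the order was the other way, with 9.78 in sgRosa and 4 in sgNr2f2. With full lists, part 4 held 3, 0, 2 and 4 peaks in sgRosa and 7, 8, 3 and 8 in sgNr2f2. These parts were singled out after their values were seen, so they carry no test.

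**Figure D4:**
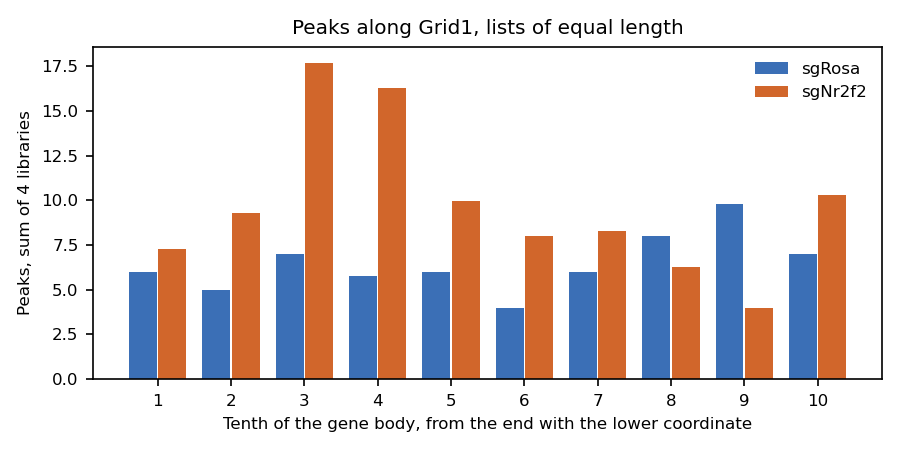
Peaks in each of 10 equal parts of the Grid1 gene body, numbered from the lower coordinate and summed over the 4 libraries of each group, in lists of equal length. The sgNr2f2 bars are highest in parts 3 and 4 (17.7 and 16.3 peaks against 7 and 5.78), and the sgRosa bars are higher in parts 8 and 9.

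Few positions recurred between libraries. When peaks of the 8 lists of equal length that overlapped by at least 1 bp were merged, the members held 512 regions, of which 22 (4.30%) were found in 2 libraries and 0 in 3 or more. Over the genome, 5.13% of 405549 regions were found in 2 or more libraries. Of the 22, 7 lay at Grid1, 7 at Grik4, 4 at Grik1, 2 at Grik2, 2 at Grik3 and 0 at Grik5. Both libraries were sgRosa for 5 regions, both were sgNr2f2 for 4, and 13 had 1 of each group. A peak of a member gene in 1 mouse was thus rarely a peak in another, in either group.

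In the full lists, 48 of 735 regions (6.53%) were found in 2 or more libraries and 6 in 3, against 6.91% in 2 or more of all 600282 regions. Those in 3 were all-sgRosa at Grik1 (chr16:88189312-88189752, libraries 1, 3 and 4), Grik4 (chr9:42765154-42765472, libraries 1, 2 and 3) and Grik5 (chr7:25076884-25077287, libraries 1, 2 and 3). The Grik5 region was centred at −4716 bp from the start site and reached a −log10 p of 6.84. The remaining 3 had 2 sgRosa libraries and 1 sgNr2f2 library, at Grik3 (chr4:125642677-125642956 and chr4:125659554-125659847) and at Grik4 (chr9:42756602-42757254). None was found in 3 or more sgNr2f2 libraries. Regions in 3 or more libraries made up 0.816% of member regions and 0.633% of all regions, and of all 2935 regions in 3 libraries 193 were all-sgRosa and 219 all-sgNr2f2. Of the member regions in 2 libraries of the full lists, 5 were both sgRosa, 10 both sgNr2f2 and 27 had 1 of each.

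Most member peaks were weak. Of the 789 in the full lists, 77 (9.76%) had a q under 0.05, the authors' value corrected for multiple testing. By library these were 6, 2, 5 and 9 in sgRosa and 14, 5, 23 and 13 in sgNr2f2. As a share of member peaks this was 10.9%, 2.99%, 6.76% and 4.84% in sgRosa and 10.7%, 4.63%, 25.6% and 16.7% in sgNr2f2. Over all protein-coding genes the shares were 18.7%, 4.89%, 9.40% and 7.42%, and 8.13%, 6.04%, 18.3% and 12.8%. Members were thus below the share of all genes in all 4 sgRosa libraries and above it in 3 of the 4 sgNr2f2 libraries. This was not tested, the sgRosa shares rest on 2 to 9 peaks each, and 26 of the 77 peaks lay at Grid1. By gene, 11 of 101 peaks passed at Grik1, 15 of 170 at Grik2, 4 of 81 at Grik3, 17 of 163 at Grik4, 4 of 30 at Grik5 and 26 of 244 at Grid1. At Grid1, 7 of the 26 were in sgRosa (3, 0, 2 and 2 by library) and 19 in sgNr2f2 (7, 1, 8 and 3). The groups overlapped in these numbers. The width was 165 bp at the median, and 36.9% of peaks were 150 bp wide, the narrowest in the lists.

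The strongest peak of any member lay in Grik5 at chr7:25062880-25063133 in sgNr2f2 3, 9362 bp after the start site, with a −log10 p of 9.42 and a 4.25-fold enrichment over background. In Grid1 it was at chr14:34995988-34996205 in sgRosa 3 (−log10 p 8.21), in Grik2 at chr10:49574089-49574240 in sgNr2f2 4 (8.05) and in Grik1 at chr16:87938396-87938601 in sgNr2f2 3 (7.61). In Grik4 it was at chr9:42641808-42642061 (6.90) and in Grik3 at chr4:125602871-125603040 (6.27), both in sgNr2f2 3. These p values are not scaled between libraries. All 6 lay inside the annotated gene, and whether each is exonic or intronic was not analysed here.

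Of the 16 related genes, 6 passed the minimum of 8 peaks. These were 3 of 4 AMPA receptor genes, 3 of 6 genes for auxiliary or scaffold proteins of kainate receptors, and 0 of 6 genes for secreted ligands. The mean was higher in sgNr2f2 for 6 of the 16 and lower for 8, and 0 of the 16 had an unadjusted exact p under 0.05. The median difference over all 16 was −0.0500 peaks, beside 0 over all protein-coding genes without the filter. Over the 6 that passed the minimum it was −1.08, beside 0.250 over all genes tested. The differences in mean peaks were largest for Grip1, a PDZ scaffold (−2.92, from 18.4 ± 7.15 in sgRosa to 15.5 ± 9.15 in sgNr2f2, SD, n = 4 each), and for Neto1, an auxiliary subunit of kainate receptors (−1.68, from 2.50 ± 1.91 to 0.822 ± 0.891). They were followed by Gria4, an AMPA receptor subunit (−1.29, from 7.00 ± 4.24 to 5.71 ± 3.44), and C1ql3, a secreted C1q-like ligand (1.25, from 0 in every sgRosa library to 1.25 ± 0.957). For each of these 4 genes the ranges of the groups overlapped.

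Across the 8 libraries, the members did not move as a set. The highest Pearson correlation of peak numbers between members in lists of equal length was 0.797, between Grik1 and Grik4, and the lowest was −0.413, between Grik2 and Grik4. Among 999 genes with at least 40 peaks, the pattern most like that of Grid1 was shown by AW554918 (r = 0.969) and Itga9 (r = 0.949). For Grik1 these genes were Fto (0.935) and Inpp5a (0.912), for Grik3 Rcan2 (0.952) and Slc14a2 (0.909), and for Grik4 Spock1 (0.936) and Gsg1l (0.914). Grik5 had too few peaks to be included. These values are descriptions over the same 8 libraries, whose depth all genes share, and the best of 999 genes is high by selection.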

How the data were processed

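ATAC-seq peak lists of 8 libraries (4 sgRosa, 4 sgNr2f2, grouped by sample title) were used, in mm10 coordinates per the labels. Tools named in the submitters' processing notes are MACS2 2.2.9.1, HOMER 4.10, DiffBind 3.10.0, Picard, MultiQC 1.11, fastp 0.23.2 and FastQC 0.11.9. Aligner, removal of duplicates, Tn5 shift and settings of the peak caller are not given in the sources used here. Each deposited line holds the authors' integer score (10 times the −log10 p, not used otherwise), the −log10 p and −log10 q of the peak caller, and the ratio of the summit to its background (fold enrichment). The authors called peaks per library. These values were used only within a list, to rank, filter or describe. Read depth per library is unknown, and no interval that needs it is given.

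Where 1 interval had several summits, only its strongest was kept. Each library was reduced to its strongest 53864 peaks by −log10 p. Peaks tied at the last place share the places left by weight, a rule chosen after seeing that the files order ties by chromosome. In merged regions whole peaks were used, with ties in random order. Genes came from RefSeq tables of GRCm38.p6, which held promoters for 4 of the 6 members. The group test was an exact permutation (two-sided, 70 assignments) for genes with at least 8 peaks, and gene with flank by 256 sign flips for genes of at least 50 kb, with Benjamini-Hochberg adjustment over all genes tested.

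The members and lists were chosen with earlier results of these data known. Named genes were all 6 members, up to 4 related genes with the largest difference, the 2 most alike genes per member with at least 40 peaks, regions in 3 or more libraries and each member's strongest peak. The parts of Grid1 and the densest stretches were picked after their values were seen. Some items that these rules select, among them the likeness of Grik2 and 1 marker list, are not reported here. The calculations were tested on simulated data. Alternatives were list length, order, window, flank, filters, ties, overlap, replicate block and leaving out each library. Calculations ran in Python 3.11.15 with scipy 1.17.1, pandas 2.3.3 and numpy 2.4.6, and figures in matplotlib 3.10.9.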

Additional observations from a re-analysis of the deposited data

Results flagged for a closer look

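In groups of 4 libraries, 3 of 48 sets of values had 1 library far from the others, where the gap to the nearest library, as a share of the range, passed Dixon's critical value. Chance gives about 1 in 20 sets. The longest list, sgRosa 4, held 27 peaks at Grik1 and 60 at Grik2 in the full lists, above the other sgRosa libraries. The list of sgRosa 4 has 143405 peaks, and in lists of equal length these values were 11 and 23. At Grik5, sgRosa 2 had a density of −15.8 peaks per Mb relative to the flanks in lists of equal length, below the other sgRosa libraries, from 1 peak in the gene window.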

How the results depend on the processing

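Values below are differences, in peaks per library for numbers of peaks and in peaks per Mb for densities. Over the 6 members no number of peaks had an unadjusted exact p under 0.05 in the main analysis, so most changes of sign are of small differences. In the full lists the difference between groups in peaks became −0.750 at Grik1 and −1 at Grik5, that in gene minus flank density became −6.23 at Grik1 and −6.58 at Grik4, and gene minus flank at Grik2 became 0.8286. With lists of 26932 peaks, peaks became 0.182 at Grik2 and 0.480 at Grik3, gene minus flank at Grik3 −2.64, and the group difference at Grid1 7.87 (exact permutation p = 0.0857). With a −log10 p of at least 3, the group difference in density was −4.50 at Grik1 and −4.38 at Grik4, gene minus flank was 0.658 at Grik2, and peaks were 0.750 at Grik3 and −0.500 at Grik5. With the gene body alone peaks were 0.108 at Grik3 and −0.326 at Grik5, and the group difference at Grid1 was 10.5 (exact permutation p = 0.0571). With 20 kb on each side peaks were 0.108 at Grik3 and gene minus flank −1.11. With flanks of 0.5 Mb the group difference was −0.669 at Grik1, 11.2 at Grik2 (exact permutation p = 0.0286) and 10.2 at Grid1 (exact permutation p = 0.143), and gene minus flank at Grik3 was −0.0712. With flanks without other genes the group difference at Grik4 was −0.443. With ties in chromosome order, a setting added after seeing the data, peaks became 0.250 at Grik2 and 10.2 at Grid1 (exact permutation p = 0.0286). The cause of these changes was not tested.

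Leaving out each library in turn gave group differences in peaks of 6.75 to 11.4 at Grid1, 0.485 to 2.82 at Grik1, −3.90 to 1.44 at Grik2, −1.48 to 1.52 at Grik3, 1.15 to 6.53 at Grik4, −0.851 to 0.815 at Grik5. Gene minus flank densities were 0.836 to 4.33 at Grid1, 1.39 to 4.64 at Grik1, −1.87 to 0.413 at Grik2, −1.68 to 4.15 at Grik3, 4.26 to 7.81 at Grik4, 5.69 to 11.7 at Grik5. The group differences in gene minus flank density were 8.23 to 13.5 at Grid1, −1.48 to 6.10 at Grik1, 4.05 to 9.38 at Grik2, −14.96 to −4.06 at Grik3, −1.48 to 5.74 at Grik4, −22.1 to −6.60 at Grik5. For Grid1 in full lists the ranges were 4.83 to 18.2 peaks and 10.7 to 17.9 peaks per Mb (14.1, 15.4, 15.6 and 16.1 without sgRosa 1, 2, 3 and 4, exact permutation p = 0.0571 each). The exact permutation p for Grid1 density ran from 0.0286 to 0.0857, and Grid1 and Grik4 peaks reached 0.0286 (exact permutation) without sgNr2f2 2.

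Same-numbered libraries had correlations of 0.114, 0.0368, 0.0373 and −0.00508 over 999 genes, and pairs with different numbers ran from −0.177 to 0.140. The labels do not say whether same-numbered libraries were handled together, and these correlations cannot decide it. With the replicate block the Grid1 difference of 11.6 had an exact permutation p of 0.125, the smallest that 4 pairs allow. The block could change no other call, since the other group differences at members already had an exact permutation p above 0.05. Genes whose groups did not overlap numbered 174, and 100 in full lists, 95 with lists of 26932 peaks, 96 with a −log10 p of at least 3, 342 with 20 kb on each side, 275 without a filter and 41 with at least 40 peaks. They numbered 297 to 399 when 1 library was left out, which leaves fewer libraries to overlap. Regions at members in 2 or more libraries numbered 22, and 14 when 0.5 of the shorter peak had to overlap and 48 in full lists. Of all recomputed values, 35 changed sign, 13 lost an exact p under 0.05 (all at Grid1, in gene minus flank density), 4 gained one, and 16 counts moved by more than 1.5 times. Without read depth, weak peaks that a library missed cannot be told from closed chromatin.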
